A study of Homo sapiens with 6 samples.

Results

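The transcripts described here encode the TGF-beta and activin ligands, the TGF-beta receptors and SMAD proteins of their pathway, chosen by symbol as 10 of the 60591 genes in the count table. The ligand genes are TGFB1, TGFB2, TGFB3, INHBA and INHBB, the receptor genes are TGFBR1, TGFBR2 and TGFBR3, and the signalling genes are SMAD3 and SMAD7. They were measured by RNA sequencing in KYSE150 cells, an established line from a human oesophageal squamous cell carcinoma, with 3 TPA libraries and 3 DMSO libraries. TPA is a phorbol ester that activates protein kinase C. The TPA cells were held in serum-free medium overnight and then given TPA at 10 ng/ml for 24 h. The DMSO libraries are the controls of the same line given the solvent. The labels repeat the TPA protocol for them and give no DMSO dose or time. All libraries come from 1 cell line, and whether each was grown as its own culture is not stated. The p-values below therefore refer to differences beyond the scatter of these 6 libraries, which may be technical.

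TGF-beta ligands are secreted as latent dimers that are stored in the matrix and released by integrins and proteases. The freed ligand binds the type II receptor, which activates the type I receptor, which phosphorylates the SMAD2 and SMAD3 proteins. These enter the nucleus with SMAD4 and turn on target genes, among them SMAD7, whose product blocks the receptor. Activins, dimers of inhibin beta chains, use related receptors and the same SMAD proteins. In squamous epithelium TGF-beta is known as a growth inhibitor, and in carcinoma cells also as an inducer of migration and of mesenchymal genes.

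Library totals ran from 28915283 to 33965547 counts in TPA and from 27702329 to 30207144 counts in DMSO. The libraries did not group by treatment alone: log2 CPM (CPM is a gene's count scaled to its library's total after TMM adjustment, the unit of levels below) of TPA 1 correlated across 14063 genes at 0.961 with DMSO 1, and at 0.874 and 0.893 with TPA 2 and TPA 3. Genes are not independent replicates, so these values carry no p. Each member is therefore given per library, and a result that rests on TPA 1 is also given without it. The squamous epithelial markers were present, with 7 of 8 above a mean of 1 CPM, all but SOX2. Their summed level was 1100 to 2020 CPM in TPA and 1460 to 2970 CPM in DMSO. In TPA this was mostly CDH1, at 734, 1198 and 1179 CPM in libraries 1, 2 and 3. KRT5 had 66.7, 490.5 and 508.7 CPM in TPA and 428.5, 1736 and 1780 CPM in DMSO. Fibroblast markers summed to 5.4 to 11.0 CPM in TPA and 8.36 to 15.4 CPM in DMSO, mostly COL1A1 and THY1, with DCN at 0 in all 6 libraries. Endothelial markers summed to at most 2.25 CPM in TPA and 2.93 CPM in DMSO, with KDR at 0, and blood markers to at most 8.35 CPM in TPA and 5.6 CPM in DMSO, mostly CD68 and CD3E. In bulk RNA, fewer cells that express a gene and less of its RNA per cell cannot be told apart.

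The upstream sequences of the 3 ligand genes with the largest fitted log2 fold changes, in either direction, are shown because these genes are the ones whose levels differed most and their upstream regions are unlike. Each is the 250 bases before a transcript start in RefSeq (GRCh38.p14), read 5′ to 3′ on the gene's strand. Capitals mark the GC box, GGGCGG, on either strand and the TATA box, TATAAA, on either strand. The windows are chr19:41353923-41354172 (minus strand) for TGFB1, chr1:218345086-218345335 (plus strand) for TGFB2 and chr7:41703091-41703340 (minus strand) for INHBA.
TGFB1: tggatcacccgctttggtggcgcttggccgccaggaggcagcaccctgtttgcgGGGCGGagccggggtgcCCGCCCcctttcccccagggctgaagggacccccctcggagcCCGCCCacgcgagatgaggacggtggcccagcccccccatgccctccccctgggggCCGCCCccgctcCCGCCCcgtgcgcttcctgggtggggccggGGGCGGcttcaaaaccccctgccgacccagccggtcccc
TGFB2: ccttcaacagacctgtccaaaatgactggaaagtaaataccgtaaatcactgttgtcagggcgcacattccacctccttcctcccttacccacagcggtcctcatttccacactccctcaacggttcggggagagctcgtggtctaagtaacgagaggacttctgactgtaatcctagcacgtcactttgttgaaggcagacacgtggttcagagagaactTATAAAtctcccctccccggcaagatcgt
INHBA: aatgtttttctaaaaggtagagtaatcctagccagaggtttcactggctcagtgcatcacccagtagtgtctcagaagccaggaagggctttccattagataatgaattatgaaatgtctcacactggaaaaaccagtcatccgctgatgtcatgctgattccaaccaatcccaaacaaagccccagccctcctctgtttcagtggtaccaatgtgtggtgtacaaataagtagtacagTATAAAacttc

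The TGFB1 window was 76.8% G and C and held 6 GC boxes and no TATA box. The TGFB2 window was 50.4% G and C and that of INHBA 42.8%, and each held 1 TATA box and no GC box. Of 35116 such windows in RefSeq, 42.6% held a GC box and 10.7% a TATA box. The letters of the AP-1 site, TGANTCA, the sequence through which phorbol esters are best known to act on genes, were in none of the 3 windows, against 6.57% of all windows. Over all 25 windows of the 10 members, some of which overlap in TGFBR1 and TGFBR2, the AP-1 letters occurred in 1. It is a SMAD3 window (chr15:67125492-67125741) before a start that lies inside the gene. The window before the first SMAD3 start in RefSeq (chr15:67065352-67065601) held no AP-1 letters. The letters of the cAMP response element (TGACGTCA) and the SMAD palindrome (GTCTAGAC) were in none of the 25, against 1.65% and 0.182% of all windows. All motifs were searched on both strands. Such matches describe letters only, and which start these cells use was not measured.

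TGFB2 made up a smaller part of the TGF-beta ligand transcripts in every TPA library than in any DMSO library. TGFB2 fell, while TGFB1 was higher in every TPA library than in any DMSO library without passing the test. Of the 9 members with enough counts to be tested (INHBB had too few), 1 was lower and 0 were higher in TPA at an adjusted p under 0.05 by the quasi-likelihood test of edgeR, adjusted over all genes after Benjamini and Hochberg. Of all 21825 genes tested, 0.394% were lower and 0.861% higher, 1.26% in all. Of these calls 68.6% were higher, and 36.5% with scaling by library size alone. At an unadjusted p under 0.05 there were 5 members, against 22.1% of all genes. With DESeq2 3 were higher and 1 lower, against 6.83% and 3.18% of the 23923 genes it gave an adjusted p. With limma-voom 0 were higher and 1 lower, against 1.13% and 0.596% of genes. With the replicate number as a block, 3 members were higher and 1 lower, against 4.58% and 6.52% of all genes. Without TPA 1, 4 members were higher and 2 lower, against 24.6% and 27.8% of genes. Groups did not overlap for 4 members higher in TPA and 2 lower, against 14.3% and 15.2% of genes tested. The members' median log2 fold change was 0.12, beside -0.11 for all genes tested.

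**Figure D1:**
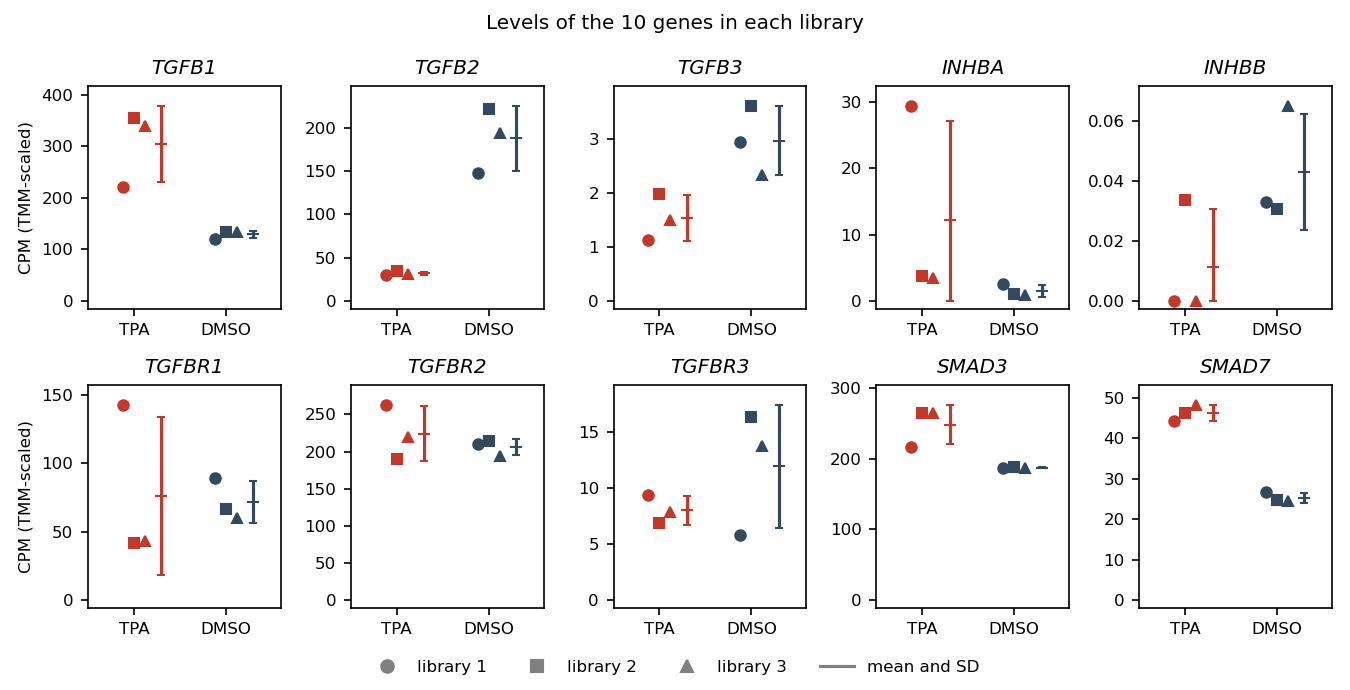
Level of each of the 10 genes in every library, in CPM (linear axes from 0, scale differing by panel), TPA in red and DMSO in dark blue. Symbols mark the library number, and bars show mean and SD (n = 3), with the lower end stopped at 0. TGFB2 is at 30.3 to 34.1 CPM in TPA and 147 to 222 CPM in DMSO, while INHBA and TGFBR1 are each highest in TPA 1.

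TGFB2 encodes a TGF-beta ligand that is prominent in development and in epithelial tumours (chromosome 1, 218346235 to 218444619, GRCh38). Its level was 30.3, 34.1 and 30.5 CPM in TPA libraries 1, 2 and 3, against 147, 222 and 194 CPM in DMSO libraries 1, 2 and 3. All TPA libraries lay far below all DMSO libraries, and they lay closer together. The mean was 31.7 ± 2.14 CPM in TPA and 188 ± 37.7 CPM in DMSO (SD, n = 3 each). Its log2 fold change was -2.57 ± 0.24 (SE), that is 0.168 times the DMSO level, with an adjusted p of 0.0202 (edgeR). The ratio within a library number was -2.28, -2.70 and -2.67 on the log2 scale for numbers 1, 2 and 3. The adjusted p was 0.0771 without TPA 3, 0.191 without DMSO 2 and 0.16 without DMSO 3 (edgeR), with log2 fold changes of -2.53, -2.42 and -2.54. In GENCODE 29 a non-coding RNA, TGFB2-OT1, covers 26.6% of the exon bases of TGFB2 on the same strand and was listed at 0 counts in every library, and how reads in the overlap were counted is not stated. Over all alternatives the adjusted p of TGFB2 ran from 2.36e-15 to 0.191.

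TGFB1 encodes the ligand that gave the family its name (chromosome 19, 41301587 to 41353911). Its level was 220, 355 and 340 CPM in TPA libraries 1, 2 and 3, against 121, 133 and 133 CPM in DMSO. The groups did not overlap, with TPA 1 nearest to DMSO. The mean was 305 ± 73.9 CPM in TPA and 129 ± 6.97 CPM in DMSO (SD, n = 3 each), and the log2 fold change of 1.24 ± 0.24 had an adjusted p of 0.0581. It passed with the replicate block (1.21, adjusted p = 0.0143) and without TPA 1 (1.54, adjusted p = 0.000403). Over all alternatives the adjusted p of TGFB1 ran from 2.21e-10 to 0.339. HNRNPUL1, on the opposite strand, overlaps 6.64% of the exon bases of TGFB1, and without a stated strand setting reads there cannot be told apart.

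TGFB3 encodes the third TGF-beta ligand (chromosome 14, 75958099 to 75982991) and was scarce in both groups. It had 31, 59 and 46 counts in TPA and 90, 119 and 72 counts in DMSO, or 1.12, 1.98 and 1.5 CPM in TPA against 2.96, 3.63 and 2.35 CPM in DMSO. All TPA values lay below all DMSO values, although TPA 2 and DMSO 3 were close. A log2 fold change of -0.95 ± 0.33 did not pass (adjusted p = 0.156, edgeR), and without both libraries numbered 1 it was -0.63 and passed (adjusted p = 0.0362). TGFB3-AS1, an RNA from the opposite strand, overlaps 3.32% of its exon bases.

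Levels of different genes were compared per kilobase (kb) of exon, as CPM per kb. TGFB2 made up 7.94%, 5.68% and 5.33% of the transcripts of the 3 TGF-beta ligand genes in TPA libraries 1, 2 and 3, against 43.0%, 50.7% and 47.7% in DMSO. TGFB1 took nearly all the rest. The mean TGFB2 share was 6.32% ± 1.42 in TPA and 47.1% ± 3.88 in DMSO (SD, n = 3 each), a difference of -40.8 percentage points. The exact two-sided permutation p was 0.1, the smallest that 3 libraries against 3 allow. A share within a library does not depend on the scaling between libraries. It can depend on GC content, which differs between TGFB1 (63.5%) and TGFB2 (38.9%), and no GC-corrected share is given. The share also rests on the exon length, which for TGFB2 includes the 26.6% shared with TGFB2-OT1. If reads there were not counted, the TGFB2 share is understated in both groups, and which ligand led in DMSO is not settled. The summed level of the 3 genes was 74.1, 117 and 111 CPM per kb in TPA and 66.5, 84.9 and 79.2 CPM per kb in DMSO, with overlapping groups (exact permutation p = 0.3, two-sided).

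**Figure D2:**
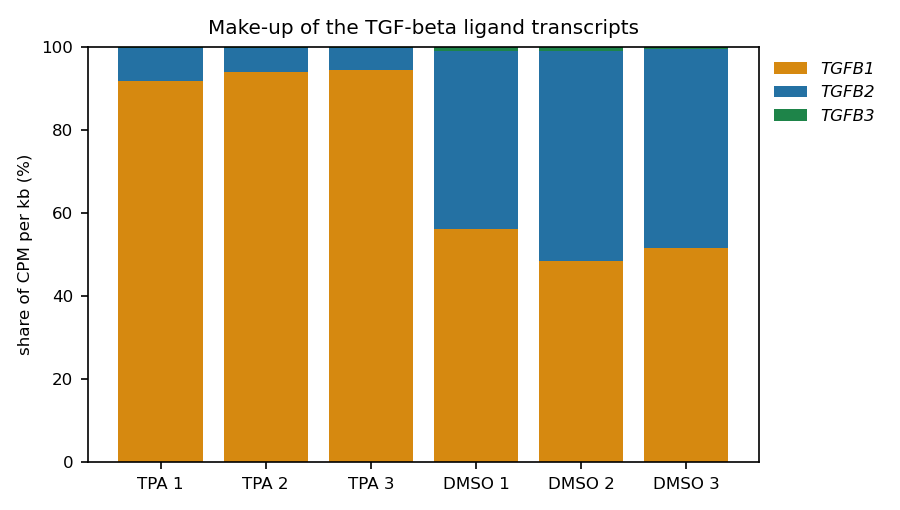
Share of TGFB1, TGFB2 and TGFB3 in their summed CPM per kb of exon (%), 1 bar per library. TGFB2 makes up 5.33% to 7.94% in TPA and 43.0% to 50.7% in DMSO, and TGFB3 under 1% in every library.

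INHBA encodes the beta A chain of inhibin, which pairs with itself to form activin A (chromosome 7, 41667168 to 41705834). It had 814, 112 and 107 counts in TPA libraries 1, 2 and 3, against 78, 36 and 25 counts in DMSO. In CPM these were 29.5, 3.76 and 3.49 in TPA and 2.57, 1.1 and 0.814 in DMSO. The groups did not overlap, but most of the distance came from TPA 1, and DMSO 1 was also the highest of its group. With a log2 fold change of 3.03 ± 0.94 it did not pass (adjusted p = 0.121, edgeR). It was 1.39 (adjusted p = 0.0304) without TPA 1 and 2.07 without both libraries numbered 1, and 2.52 (adjusted p = 0.00312) with the replicate block. Within the library numbers the log2 ratio was 3.49, 1.72 and 2.01, so all 3 pairs had the same sign. The adjusted p of INHBA ran from 1.08e-06 to 0.417 over all alternatives.

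INHBB encodes the beta B chain, the partner of activins B and AB. It had 0, 1 and 0 counts in TPA and 1, 1 and 2 counts in DMSO. Every value lay under the floor of 3 counts, the most that a library showing 0 counts may stand for, so no fold is given. For the same reason the share of INHBA among the activin chain transcripts is not given.

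TGFBR2 encodes the type II receptor, which binds the ligand first (chromosome 3, 30606502 to 30694142). Its level was 263, 190 and 220 CPM in TPA and 210, 215 and 195 CPM in DMSO. The groups overlapped throughout. Its log2 fold change was 0.12 ± 0.20 (adjusted p = 0.753, edgeR), and the ratio changed sign between library numbers (0.33, -0.18 and 0.17).

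TGFBR1 encodes the type I receptor kinase, also known as ALK5 (chromosome 9, 99104038 to 99154192). Its level was 143, 41.8 and 43.2 CPM in TPA and 89.0, 66.3 and 60.0 CPM in DMSO. TPA 1 was the highest of the 6 libraries and TPA 2 and TPA 3 were the lowest. The log2 fold change of 0.08 ± 0.49 did not pass (adjusted p = 0.936, edgeR). Without TPA 1 the direction turned and passed (-0.64, adjusted p = 0.0206), as it did without both libraries numbered 1 (-0.42, adjusted p = 0.000779). With the correction for GC content and the replicate block it was 0.42 and passed in the other direction (adjusted p = 0.0437), so no direction is given for this gene. Its adjusted p ran from 0.000779 to 0.986 over all alternatives.

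TGFBR3 encodes betaglycan, a co-receptor that presents TGFB2 to the signalling receptors (chromosome 1, 91680343 to 91906335). Its level was 9.39, 6.86 and 7.86 CPM in TPA and 5.79, 16.4 and 13.8 CPM in DMSO. DMSO 1 was the lowest library of all, below each TPA library. Its log2 fold change was -0.57 ± 0.39 (adjusted p = 0.422, edgeR), and without both libraries numbered 1 it was -0.88 and passed (adjusted p = 2.71e-05, from 2 close libraries against 2). Over all alternatives its adjusted p reached 0.804.

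SMAD3 encodes a receptor-activated SMAD (chromosome 15, 67063763 to 67195195). Its level was 216, 264 and 265 CPM in TPA and 187, 188 and 187 CPM in DMSO. The groups did not overlap, yet the log2 fold change was small at 0.41 ± 0.19 and did not pass (adjusted p = 0.257, edgeR). Without TPA 1 it was 0.61 and passed (adjusted p = 0.00194), and over all alternatives the adjusted p ran from 1.75e-06 to 0.632. An antisense RNA, AC087482.1, overlaps 2% of its exon bases.

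SMAD7 encodes the inhibitory SMAD that is itself a TGF-beta target (chromosome 18, 48919853 to 48952052). Its level was 44.2, 46.4 and 48.3 CPM in TPA and 26.8, 24.8 and 24.4 CPM in DMSO. The groups were well apart, with little spread in either. The log2 fold change of 0.87 ± 0.20, or 1.83-fold, did not pass (adjusted p = 0.0691, edgeR), and passed with the replicate block (adjusted p = 0.039). The ratios within library numbers were 0.72, 0.90 and 0.98. Without TPA 1 the value was 1.01 and passed (adjusted p = 0.000732). The adjusted p of SMAD7 ran from 5.28e-08 to 0.374 over all alternatives.

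**Figure D3:**
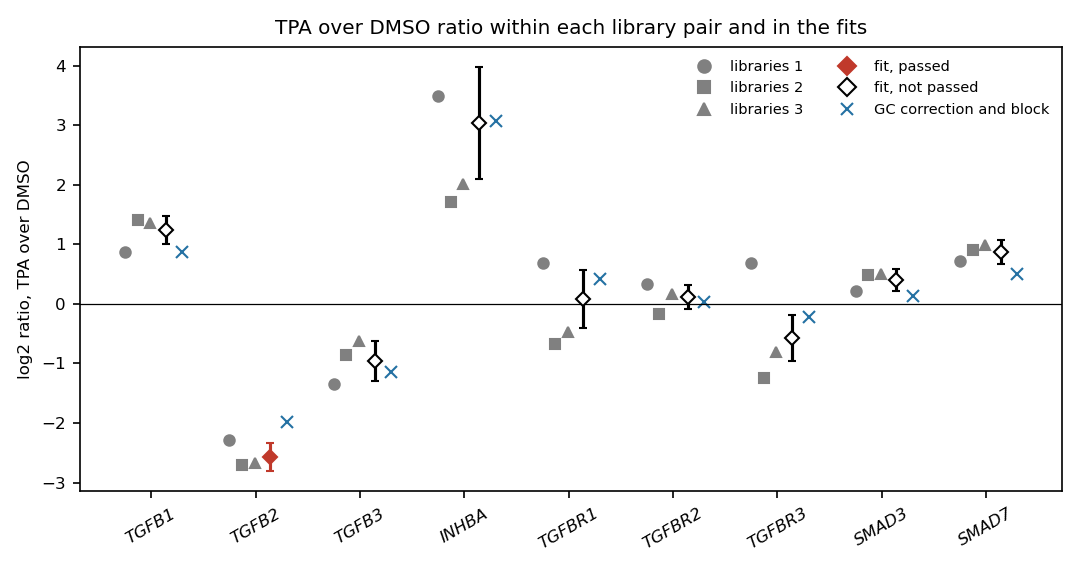
Log2 ratio of TPA over DMSO for the 9 tested members. Grey symbols are the ratios within a library number, diamonds the edgeR fit with its SE (red where it passed), and crosses the fit with GC correction and replicate block. TGFB2 has all values below -1.9, TGFB1, INHBA, SMAD3 and SMAD7 have all values above 0, and TGFBR1, TGFBR2 and TGFBR3 have ratios on both sides of 0.

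Across genes, the TPA to DMSO ratio was higher for transcripts of higher GC content in library numbers 2 and 3 (Spearman correlation 0.645 and 0.584 over 13853 genes) but not in number 1 (-0.115). TGFB1 and SMAD7 are among the GC-rich transcripts, at 63.5% and 58.7%. TGFB2, TGFBR1 and INHBA are among the GC-poor ones, at 38.9%, 39% and 39.1%. In number 1 the log2 ratio was 0.87 for TGFB1 and -2.28 for TGFB2. What part of the members' differences goes with this trend was not tested. With the GC correction and the replicate block, TGFB2 had -1.98 (adjusted p = 0.00288, edgeR) and TGFB1 0.87 (adjusted p = 0.00642). In that fit INHBA had 3.06, SMAD7 0.50, TGFBR1 0.42 and TGFB3 -1.14, all at an adjusted p under 0.05, while SMAD3 had 0.14 (adjusted p = 0.3). It called 4 members higher and 2 lower, against 9.18% and 10.8% of 21021 genes. With the GC correction alone SMAD7 had 0.53 (adjusted p = 0.176, edgeR), TGFBR1 0.43 (adjusted p = 0.163) and TGFB3 -1.14 (adjusted p = 0.0555), and none of these passed. TGFB1, TGFB2 and INHBA passed there as well (adjusted p = 0.0199, 0.0405 and 0.0379, edgeR).

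Per kb of exon, TGFB1 was the most abundant member in TPA at 94.2 ± 22.8 CPM per kb, followed by TGFBR2 (47.6 ± 7.82) and SMAD3 (27.3 ± 3.07; SD, n = 3). These did not overlap one another. TGFBR1 (11.1 ± 8.47), SMAD7 (9.20 ± 0.41) and TGFB2 (6.14 ± 0.42) came next in TPA, and the range of TGFBR1 overlapped both of the others. INHBA (1.48 ± 1.80), TGFBR3 (0.923 ± 0.147) and TGFB3 (0.313 ± 0.088) were low in TPA, and INHBA overlapped TGFBR3. In DMSO TGFBR2 (43.8 ± 2.21), TGFB1 (39.8 ± 2.15) and TGFB2 (36.5 ± 7.31 CPM per kb) led, and TGFB2 overlapped both others. The TGFB2 length includes the 26.6% of its exon bases shared with TGFB2-OT1. If reads there were not counted, its level per kb is understated, so no order among these genes in DMSO is given. SMAD3 (20.6 ± 0.10), TGFBR1 (10.5 ± 2.23) and SMAD7 (5.04 ± 0.25) followed in DMSO without overlap. TGFBR3 (1.38 ± 0.63) overlapped TGFB3 (0.606 ± 0.131) in DMSO, and INHBA stood at 0.180 ± 0.113 CPM per kb.

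The genes whose log2 CPM followed TGFB2 most closely over the 6 libraries were NRG1 (Pearson correlation 0.999), DLGAP5 (0.996) and CCDC34 (0.996), among 12558 genes. NRG1 encodes neuregulin 1, a ligand of ERBB receptors, and DLGAP5 a protein of the mitotic spindle. NRG1 had 53.8, 59.1 and 59.8 CPM in TPA and 175, 229 and 209 CPM in DMSO. DLGAP5 had 10.3, 10.7 and 10.1 CPM in TPA and 20.3, 21.4 and 21.3 CPM in DMSO. As in TGFB2, TPA 1 lay with the other TPA libraries in both. The correlations rest on 6 libraries that share 2 treatments, and 21 genes exceeded 0.99.

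The other genes of the pathway were taken from lists by role. Among 8 tested ligands of the wider family 0 were higher and 0 lower, with a median log2 fold change of 0.19. BMP2, a bone morphogenetic protein gene, had 3.63 ± 0.37 CPM in TPA and 1.95 ± 0.54 CPM in DMSO (0.89 ± 0.31, adjusted p = 0.153), and GDF15, a stress-induced ligand gene, had -0.69 ± 0.46 (adjusted p = 0.408). The value of GDF15 rested on the libraries numbered 1: its log2 ratio within numbers 1, 2 and 3 was -2.36, 0.20 and -0.12. It had -0.24 without TPA 1, -0.30 without DMSO 1 and 0.20 without both. Among 8 other receptors 0 passed in either direction, with a median of -0.45. BMPR1A, a type I receptor gene for BMPs, had 18.1 ± 4.72 CPM in TPA and 36.7 ± 3.60 CPM in DMSO (-1.02 ± 0.26, adjusted p = 0.0818). It passed with the replicate block (adjusted p = 0.0309). With the GC correction BMPR1A had -0.54 (adjusted p = 0.12, edgeR), and -0.54 with the block as well (adjusted p = 0.0213, edgeR). BMPR1B, its close relative, had -0.96 ± 0.50 (adjusted p = 0.307), and -1.55 without TPA 1 (adjusted p = 0.00607).

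The 5 other SMAD genes tested all had negative log2 fold changes, with a median of -0.91, and 0 passed. With the replicate block 3 were lower, against 6.52% of all genes. With the GC correction and the block 3 were lower, against 10.8%, and the median was -0.49. SMAD2, the partner of SMAD3 downstream of TGF-beta receptors, had 178, 71.3 and 81.4 CPM in TPA and 236, 198 and 185 CPM in DMSO. TPA 1 lay nearer to DMSO than to the other TPA libraries. Its log2 fold change of -0.91 ± 0.37 did not pass (adjusted p = 0.203) but did with the replicate block (-1.02, adjusted p = 0.0375). SMAD5 and SMAD6 passed with the block as well, and SMAD1, a BMP-activated SMAD gene, had -0.89 ± 0.28 (adjusted p = 0.124).

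Of 9 tested genes for storing and releasing latent TGF-beta 0 passed, with a median log2 fold change of -0.48. ITGB8, whose product with the alpha V chain releases TGF-beta from its latent complex, had 76.5, 58.4 and 62.8 CPM in TPA and 110, 209 and 204 CPM in DMSO. DMSO 1 was the DMSO library nearest to TPA. Its log2 fold change was -1.41 ± 0.30 (adjusted p = 0.0651), and it passed with the block (adjusted p = 0.0199). With the GC correction it was -0.82 (adjusted p = 0.21, edgeR), and -0.78 with the block as well (adjusted p = 0.00954, edgeR). FURIN, the protease that cleaves ligand precursors, had 134, 224 and 215 CPM in TPA and 106, 92.1 and 94.1 CPM in DMSO (0.97 ± 0.25, adjusted p = 0.0861, and 0.0465 with the block). With the GC correction FURIN had 0.57 (adjusted p = 0.0657, edgeR), and 0.58 with the block as well (adjusted p = 0.0194, edgeR). LTBP2 and LTBP3, latent TGF-beta binding protein genes, were lower with the block (adjusted p = 0.0332 and 0.0297).

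Only 3 of 11 listed antagonist genes had enough counts to be tested, and 0 passed. FST encodes follistatin, which binds activins and keeps them from their receptors. It had 90.7, 223 and 222 CPM in TPA and 46.8, 49.0 and 49.0 CPM in DMSO. The groups did not overlap, and the DMSO libraries were nearly equal. The log2 fold change was 1.89 ± 0.36 (adjusted p = 0.0576), and 1.78 with the block (adjusted p = 0.00687). Its relative FSTL3 had 118 ± 34.9 CPM in TPA and 65.0 ± 2.43 CPM in DMSO (0.86 ± 0.27, adjusted p = 0.122).

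Of 16 intracellular regulators 0 passed, with a median of 0.18. NEDD4L, a ubiquitin ligase gene whose product marks activated SMAD2 and SMAD3 for destruction, had 1746, 1076 and 1152 CPM in TPA and 618, 395 and 369 CPM in DMSO. Libraries numbered 1 were the highest in both groups, and the groups did not overlap. The log2 fold change was 1.52 ± 0.29 (adjusted p = 0.0581) and passed with the block (adjusted p = 0.00413). SMURF1, a ubiquitin ligase gene of the same pathway, had 160, 178 and 179 CPM in TPA and 113, 73.9 and 70.6 CPM in DMSO. Its log2 fold change was 1.01 ± 0.25 (adjusted p = 0.0767, and 0.0303 with the block). With the GC correction SMURF1 had 0.69 (adjusted p = 0.118, edgeR) and NEDD4L 1.78 (adjusted p = 0.0139, edgeR). With the block as well SMURF1 had 0.72 (adjusted p = 0.0155, edgeR).

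Of 16 TGF-beta target genes 2 rose, 1 fell and 13 did not pass, against 0.861% and 0.394% of all genes, with a median of -0.07 beside -0.11 for all genes. The balance turned with the fit: 3 were higher and 4 lower with the replicate block, against 4.58% and 6.52% of all genes. With the GC correction and the block 3 were higher and 7 lower, against 9.18% and 10.8%. The median there was -0.35, beside -0.15 for all genes. The balance over all genes turned too: 68.6% of calls were higher in the main fit, 41.3% with the block and 46% with both. CDKN1A, the gene of the cell cycle inhibitor p21, rose to 377 ± 81.1 CPM in TPA, against 71.8 ± 16.4 CPM in DMSO (2.39 ± 0.27, adjusted p = 0.025). CDKN2B, another cell cycle inhibitor gene of the list, went the other way without passing (-1.27 ± 0.23, adjusted p = 0.054, edgeR). It had 12.1, 9.88 and 11.8 CPM in TPA and 22.3, 31.1 and 27.9 CPM in DMSO, and passed with the replicate block (adjusted p = 0.0139, edgeR). FN1, the fibronectin gene, rose to 491 ± 139 CPM in TPA, against 114 ± 16.1 CPM in DMSO (2.1 ± 0.28, adjusted p = 0.0302). SNAI2, a transcription factor gene that represses epithelial genes, fell to 20.6 ± 0.99 CPM in TPA, against 55.1 ± 7.51 CPM in DMSO (-1.42 ± 0.22, adjusted p = 0.0394). CDKN1A, FN1 and SNAI2 are targets of other pathways too. Each of their calls was lost without TPA 2, TPA 3, DMSO 2 or DMSO 3, with edgeR adjusted p-values of 0.0688 to 0.242 for CDKN1A, 0.0877 to 0.256 for FN1 and 0.131 to 0.294 for SNAI2. Without DMSO 1 the adjusted p was 0.0543 for FN1 and 0.0698 for SNAI2 (edgeR), and with the GC correction alone that of SNAI2 was 0.104.

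SKIL and PMEPA1, direct SMAD target genes, did not pass. SKIL, a feedback repressor gene, had 84.5, 26.4 and 27.5 CPM in TPA and 75.8, 42.1 and 47.3 CPM in DMSO (-0.26 ± 0.50, adjusted p = 0.785). PMEPA1, another feedback gene, had 34.8, 69.4 and 66.7 CPM in TPA and 54.4, 51.4 and 51.7 CPM in DMSO (0.12 ± 0.29, adjusted p = 0.836). In both genes TPA 1 lay on the opposite side of the DMSO libraries from TPA 2 and TPA 3. Without TPA 1 SKIL had -0.92 (adjusted p = 0.0186) and PMEPA1 0.49 (adjusted p = 0.00846), while SKIL had 0.03 and PMEPA1 -0.03 without TPA 2. Without TPA 1, BMP2, BMPR1A, SMAD1, SMAD2, ITGB8, FURIN, FST, FSTL3, NEDD4L and SMURF1 also passed in the direction given above, in a fit that called 24.6% of genes higher and 27.8% lower.

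**Figure D4:**
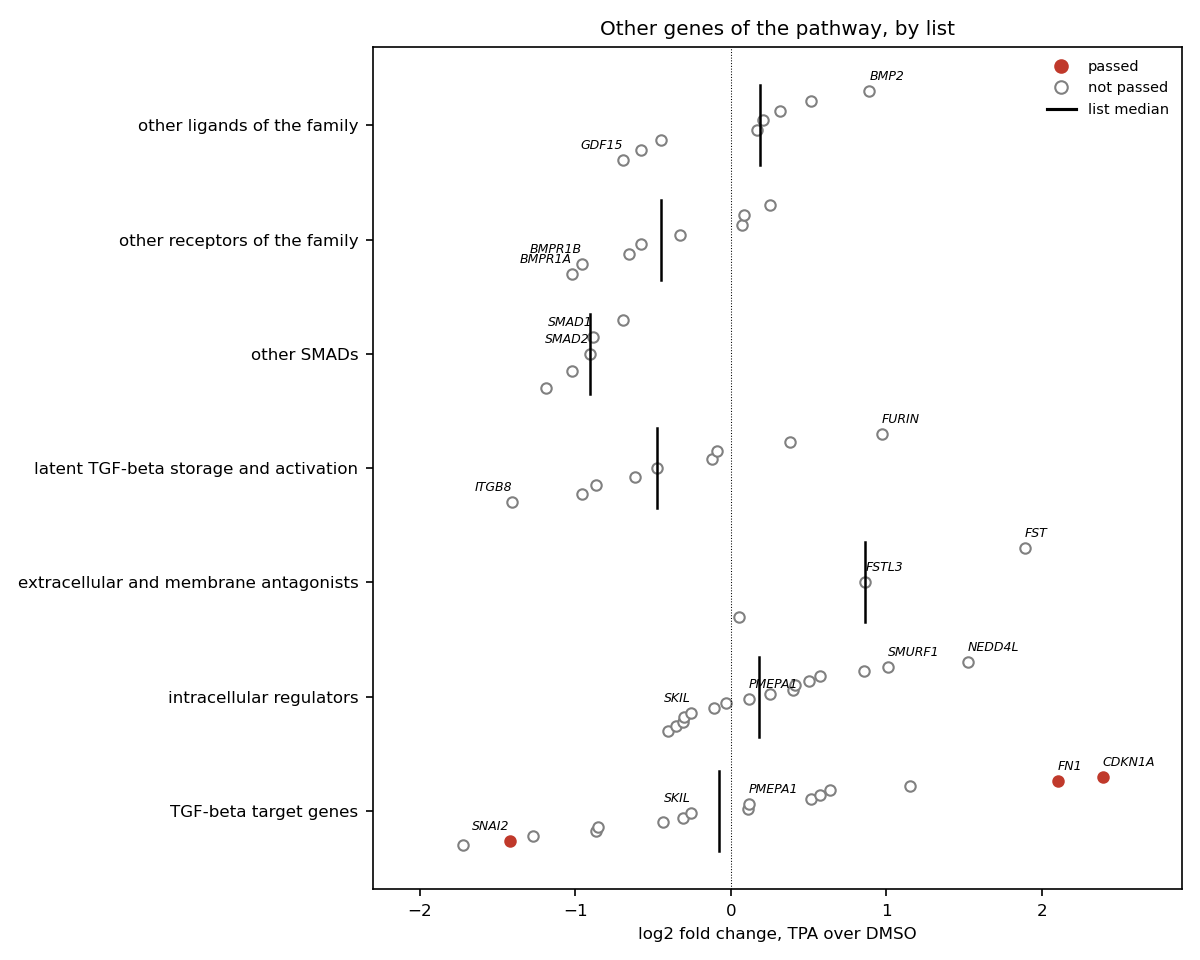
Log2 fold change, TPA over DMSO, of the tested genes in 7 pathway lists (the 10 members are left out, and SKIL, PMEPA1 and LTBP2 stand in more than 1 list). Red points passed (edgeR, adjusted p under 0.05), open points did not, and black lines are list medians. The 3 red points, SNAI2, FN1 and CDKN1A, are all in the target gene list.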

How the data were processed

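RNA sequencing of total RNA was deposited for 3 TPA and 3 DMSO libraries. The authors deposited raw counts of reads per gene symbol, made with HISAT2 2.1.0 and HTSeq 0.12.4 on builds named hg38 and GRCh38, per the submitters' processing notes. Annotation release, strand setting and read layout: not given in the sources used here. The 3 control columns of the table were taken as DMSO libraries 1 to 3 by their numbers.

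All genes were fitted with edgeR 4.0.16 (R 4.3.3) by TMM scaling, filterByExpr, and a quasi-likelihood F-test on group alone, at a Benjamini-Hochberg adjusted p of 0.05. Adjusted p-values with no other tool named are from edgeR, and the standard error is the log2 fold change over the square root of F. CPM used TMM-scaled library sizes, so 0 counts allow up to 0.0915 to 0.109 CPM (3 counts, counting error only). Ratios within a library number used a prior count of 2. Coordinates, exon lengths and GC content came from GENCODE 29, with a GC value for 96.3% of tested genes, and upstream sequences from RefSeq for all 10 members. The GC correction subtracted a robust spline (5 degrees of freedom) of each library's log2 CPM on GC content.

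The main test has no block. Replicate numbers were taken to pair the libraries in the alternative fit with a replicate block, because deviations from the group means correlated between TPA and DMSO libraries of the same number (0.646, 0.438 and 0.598). No label states a shared culture. TPA 2 with DMSO 3 (0.595) and TPA 3 with DMSO 2 (0.487) were as close, so only number 1 is set apart by these values.

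Members, lists, motifs and the naming rule were chosen with earlier results of these data known. Named were all members, direct SMAD targets (SKIL, PMEPA1 and 1 gene not reported here), the passing genes of each list (at most 4, or else the 2 with the lowest p) and the 3 genes most like each passing member. SMAD5, SMAD6, LTBP2, LTBP3 and CDKN2B were added after their values were seen. Alternatives were other scalings and filters, DESeq2 1.42.0, limma-voom (limma 3.58.1), the block, the GC correction, a threshold of 0.01 and leaving out libraries.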

Additional observations from a re-analysis of the deposited data

How the results depend on the processing

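The TGFB2 fold change kept its direction under all alternatives, from -2.83 with scaling by library size alone to -1.90 with the GC correction. Its call was lost at a threshold of 0.01 and in 3 of the 6 fits that left out 1 library. Of 162 alternative values of the members' fold changes, 131 stayed on their side of the threshold, 25 newly passed and 4 no longer passed, and 2 reversed: TGFBR1 had -0.64 without TPA 1 (up to 0.38 without TPA 2) and -0.42 without both libraries numbered 1. Without passing, TGFBR1 was also below 0 with library size alone (-0.14), limma-voom and the replicate block (-0.16 each). Counts of members higher, 0 in the main comparison, were 3 with DESeq2, 2 with the GC correction, 4 with the GC correction and replicate block, 2 without a filter, 3 with the replicate block, 4 without both libraries numbered 1, and 0 to 4 with 1 library left out. Counts lower, 1 in the main comparison, were 2 with the GC correction and replicate block, 0 at a threshold of 0.01, 4 without both libraries numbered 1, and 0 to 2 with 1 library left out. Over all genes, 188 higher and 86 lower (68.6% higher) compare with 126 and 219 (36.5%) scaled by library size alone, which put the median over all genes at -0.36, against -0.11 (log2). They were 1635 and 761 of 23923 genes with DESeq2, 247 and 130 of 21825 with limma-voom, and 429 and 202 of 40368 without a filter. With the GC correction they were 707 and 677 of 21021, and 1930 and 2267 of 21021 with the replicate block as well. The replicate block alone gave 1000 and 1423 of 21825. At 0.01 they were 0 and 0 (edgeR, 4814 genes at an unadjusted p under 0.05). Without both libraries numbered 1 they were 7216 and 7475 of 22421. The 4 members higher and 4 lower there thus come from a fit that called most genes tested. With 1 library left out they ran from 0 to 5577 higher and from 0 to 6297 lower, both highest without TPA 1 and at 0 without DMSO 2 or DMSO 3 (2612 and 2745 genes at an unadjusted p under 0.05, edgeR). Added to the main comparison, the replicate block changed the calls of TGFB1, INHBA and SMAD7 alone among the members, and added to the GC correction those of TGFB3, TGFBR1 and SMAD7. The difference in the TGFB2 share was -48.8 points from raw counts, since TGFB2 has more exon bases than TGFB1, and -42.9 to -39.0 with 1 library left out. Except where fewer libraries or a stricter threshold entered by construction, the cause was not tested. INHBB had at most 2 counts a library, and whether depth or a lack of expression set this was not tested.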
